A study of Mus musculus with 24 samples.

Results

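The desmosome transcripts described here belong to 10 genes, Dsg2, Dsg3, Dsc2, Dsc3, Jup, Pkp1, Pkp2, Pkp3, Dsp and Perp, taken by symbol from a deposited table of normalised counts for 25239 genes in cultured mouse airway epithelium. All 10 had a mean of at least 10 normalised counts over the libraries, so all were among the 13549 genes tested. The cells were primary tracheal epithelial cells of FVB/NJ mice of wild-type genotype, 7 to 8 weeks of age, grown on inserts at an air-liquid interface, where the upper cell face meets air, for 10 to 14 days. The inserts then received cigarette smoke or humidified air over 10 days, and 1 smoke exposure was 2 cigarettes burning for about 8 minutes. The 24 libraries form 4 groups of 6 inserts, namely female smoke, female air, male smoke and male air cultures. The labels name no donor animals, so the p-values measure the spread between inserts, which may be technical, and a difference between the sexes includes any other difference between the female and male preparations.

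A desmosome is a spot-shaped junction that holds neighbouring epithelial cells together and ties their keratin filaments to the membrane. Desmogleins (Dsg) and desmocollins (Dsc) are cadherins that bridge the gap between the cells, plakoglobin (Jup) and the plakophilins (Pkp) bind their tails, and desmoplakin (Dsp) joins this plaque to keratin. Stratified epithelia such as the epidermis carry Dsg3 and Dsc3, mostly in their lower layers, and Pkp1, mostly above the basal layer, whereas simple epithelia and heart muscle use Dsg2, Dsc2 and Pkp2. In the trachea the basal cells carry many desmosomes towards their columnar neighbours.

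In 23 libraries the recovered whole reads totalled 16038813 to 24485024 per library. Female air insert 1 and female smoke insert 4 stood apart from the other libraries, in that their deviation from the group fell with transcript length. The Spearman correlation of that deviation with length over 13549 genes was -0.67 in female air insert 1 and -0.43 in female smoke insert 4, against -0.14 to 0.33 in the other 22 libraries. The female fold changes of the members are therefore also given without these 2 libraries, called the 2 length-trend libraries, while levels, spreads between inserts and marker sums use all 24. RNA of a whole insert does not tell fewer cells of a type from less RNA per cell. Of the markers that define the labelled epithelium, Trp63 and Krt5 of basal cells, Foxj1 of ciliated cells and Scgb1a1 of club cells were above 0 in all 24 libraries.

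Smoke exposure changed 3 of the 10 desmosome transcripts in each sex, a share near that of all genes tested, 34.8% in female and 22% in male cultures. Pkp2 fell in smoke-exposed cultures of both sexes, to 0.624 times the air level in female cultures and 0.681 times in male cultures. Pkp3 rose in both sexes, to 1.22 times in female and 1.27 times in male cultures. Of the desmocollins, Dsc2 rose in female smoke cultures, to 1.79 times the air level, and Dsc3 fell in male smoke cultures, to 0.682 times. Some of these calls were fragile. With 1 library left out, the female Pkp3 call held in 16 of 24 refits and the male Dsc3 call in 9 of 24. The remaining 14 of the 20 smoke comparisons of the members did not pass an adjusted p of 0.05. The larger contrast lay between the air groups. There, 7 of the 10 transcripts were higher in female than in male cultures, and Pkp2 was lower. Of all genes tested, 20% were higher and 19% lower in female air cultures.

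Each transcript was tested with limma on log2(normalised count + 1), and it passed at a Benjamini-Hochberg adjusted p under 0.05. In female cultures 3 of 10 members passed the test, 2 higher and 1 lower in smoke, against a background of 34.8% of all genes tested, 15.5% higher and 19.3% lower. In male cultures 3 of 10 members passed, 1 higher and 2 lower in smoke, against 22% of all genes, 9.76% higher and 12.2% lower. These shares are near the background. The median log2 fold change of the 10 members was 0.28 in female and 0.29 in male cultures, against 0.00 and -0.01 for all genes tested. Without the 2 length-trend libraries, 3 of 10 members passed in female cultures, against 45.7% of all genes. The female median of the members was then 0.15, against -0.004 for all genes, while the male median stayed at 0.29. Under the same fit 5 of 10 passed in male cultures, where Dsg2 and Dsg3 were added and the background was 47.2%. The male values themselves do not use these 2 libraries and were unchanged, while the spread estimate shared over the groups became smaller. The fold changes and intervals of all 10 members are drawn in the plot of fold changes by comparison.

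**Figure D1:**
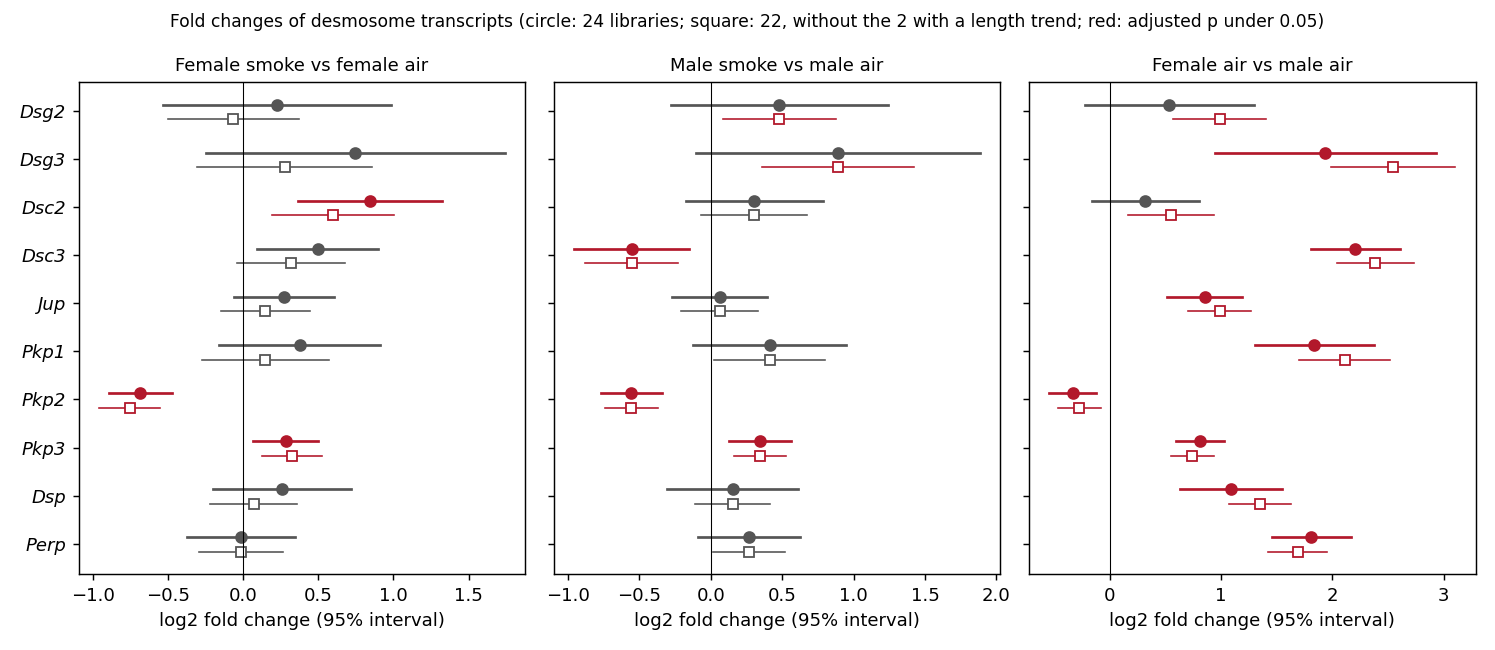
Log2 fold change of each desmosome transcript (x axis) with its 95% interval in female smoke against female air, male smoke against male air, and female air against male air cultures, 6 inserts per group. Circles use 24 libraries and squares leave out the 2 length-trend libraries, and red marks an adjusted p under 0.05; Pkp2 lies left of 0 in all 3 panels.

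The plakophilins are armadillo-repeat proteins of the plaque that bind cadherin tails and desmoplakin. Pkp2, the plakophilin of simple epithelia and heart (chr16:16213345-16272712, plus strand, mm10), had 397 to 634 normalised counts in female smoke inserts with a median of 521, against 674 to 891 with a median of 858 in female air inserts. Male smoke inserts had 656 to 776 with a median of 697, against 974 to 1088 with a median of 1060.04 in male air inserts. All 6 smoke inserts thus lay below all 6 air inserts in each sex, as the plot of counts by library shows, a separation that 12.5% of all genes tested showed in female and 25.2% in male cultures. The mean was 522 ± 94.3 in female smoke and 830 ± 81.1 in female air cultures (SD, n = 6 each), a log2 fold change of -0.68 ± 0.10 (SE, adjusted p = 5.88e-05). It was 709 ± 54.5 in male smoke and 1040 ± 49.4 in male air cultures (SD, n = 6 each), a log2 fold change of -0.55 ± 0.10 (SE, adjusted p = 0.000529). Without the 2 length-trend libraries, the female value was -0.75 (adjusted p = 1.31e-05). The female fall also held in inserts 4 to 6 alone, at -0.92 (adjusted p = 0.00026), and was -0.44 in inserts 1 to 3 alone, where it did not pass (adjusted p = 0.104).

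Pkp3, which binds most desmosomal cadherins and is spread over all layers of stratified epithelia (chr7:141078229-141090510, plus strand), changed less. It had 4456 to 5326 normalised counts in female smoke inserts with a median of 4905, against 3488 to 5039 with a median of 3822 in female air inserts. Female air insert 1, which has a length trend, and insert 4 were above the lowest smoke insert, and the other 4 air inserts were below it. Its log2 fold change was 0.28 ± 0.10 (SE, adjusted p = 0.0368) with 24 libraries and 0.33 (adjusted p = 0.00992) without the 2 length-trend libraries. This call lay close to the threshold and depended on which libraries were kept. It was lost without female air insert 2, 3, 5 or 6 or without female smoke insert 1, 2, 4 or 6, at log2 fold changes of 0.25 to 0.28 and adjusted p of 0.0516 to 0.0891.

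In male cultures Pkp3 had 2407 to 3767 normalised counts in smoke inserts with a median of 2941, against 2166.45 to 2433 with a median of 2257 in air inserts. Only the lowest smoke insert, insert 5, lay below the highest air insert. This gave a log2 fold change of 0.35 ± 0.10 (SE, adjusted p = 0.0198). It was 0.27 (adjusted p = 0.0649) without male smoke insert 1. In inserts 1 to 3 alone the male value was 0.58 (adjusted p = 0.0286) and in inserts 4 to 6 alone it was 0.11 (adjusted p = 0.645).

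Pkp1, which clusters desmosomal cadherins in stratified epithelia and stabilises the junction (chr1:135871394-135919207, minus strand), did not pass in either sex. It had 15849 to 24043 normalised counts in female smoke inserts with a median of 17964, against 5571 to 21284 with a median of 16314 in female air inserts. Male smoke inserts had 3762 to 10283 with a median of 4836, against 3648 to 4616 with a median of 4016 in male air inserts. The groups overlapped in both sexes, and the male smoke group was spread widely upwards. Its log2 fold changes were 0.38 ± 0.26 (SE, adjusted p = 0.274) in female cultures and 0.41 ± 0.26 (SE, adjusted p = 0.269) in male cultures, with 95% intervals of -0.16 to 0.91 and -0.12 to 0.95. The female value was 0.15 without the 2 length-trend libraries.

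Per kilobase of transcript, Pkp2 made up a median of 3.04% of the 3 plakophilins in female smoke inserts (2.23% to 4.26%), against 5.72% in female air inserts (4.75% to 7.38%). The share was 11.1% in male smoke inserts (6.17% to 13.3%), against 18.6% in male air inserts (15.7% to 19.5%). In each sex the smoke and air ranges of this share did not overlap. The female share of Pkp2 without the 2 length-trend libraries was 2.64% in smoke (2.23% to 4.26%) and 5.58% in air inserts (4.75% to 6.70%). Pkp1 held a median of 67.4% in female smoke and 69.6% in female air inserts, and of 47.2% in male smoke and 43.3% in male air inserts.

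**Figure D2:**
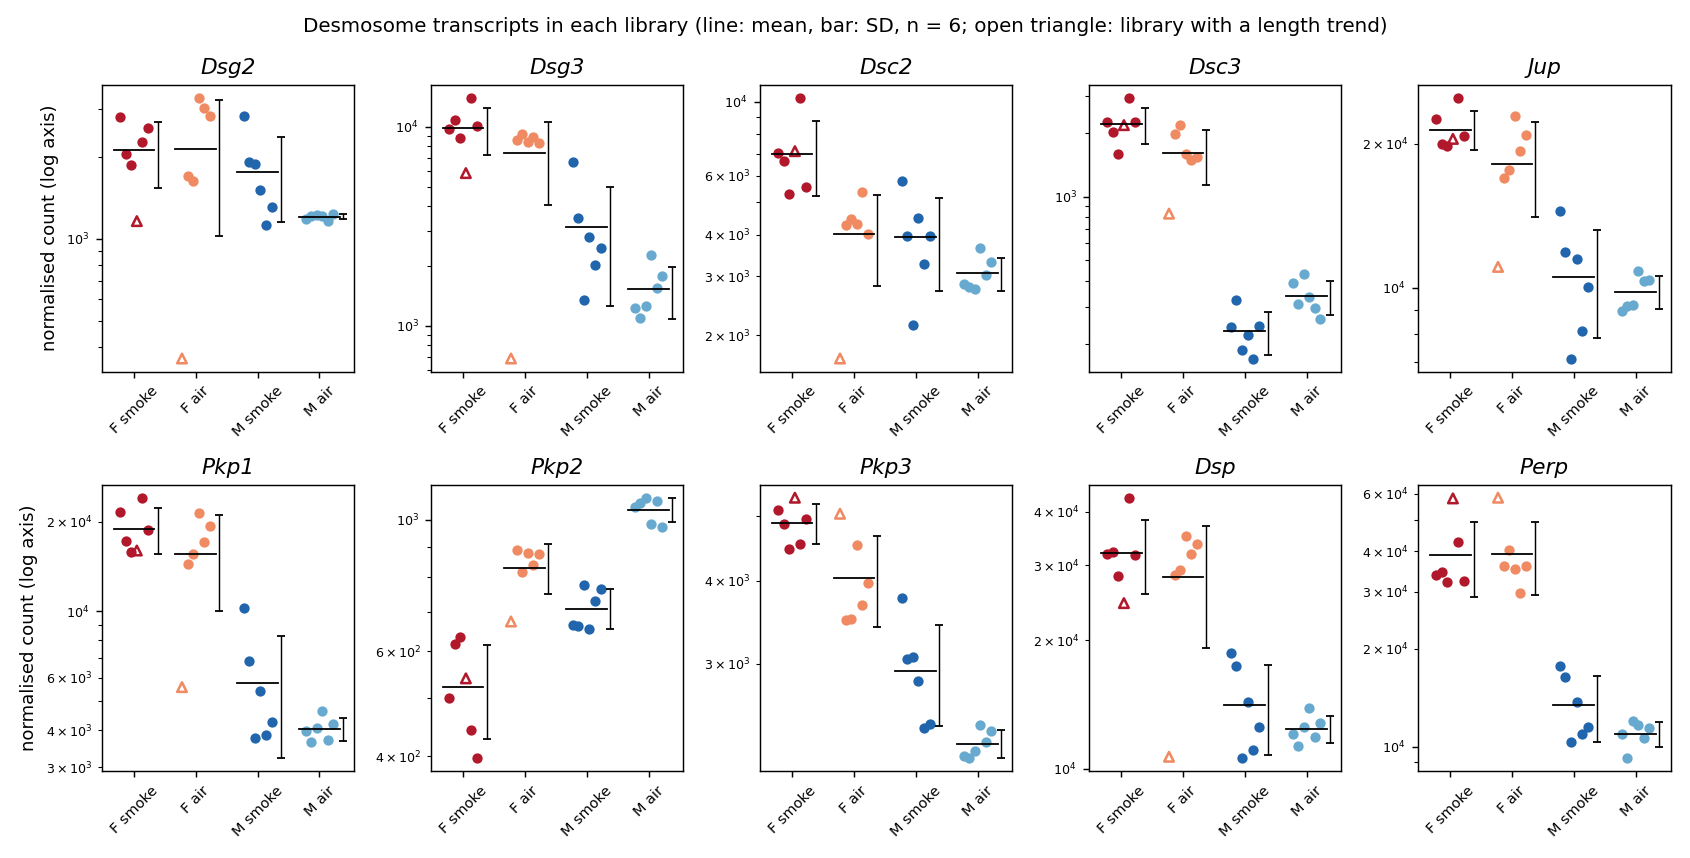
Normalised count (log y axis) of each desmosome transcript in every library of female smoke, female air, male smoke and male air cultures, with the mean and SD of the 6 inserts; open triangles are female air insert 1 and female smoke insert 4, which have a length trend. Pkp2 lies between 397 and 634 in female smoke inserts and between 674 and 891 in female air inserts, while female air insert 1 is far below its group for Dsg3.

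The desmocollins lie side by side on chromosome 18. Dsc2, the desmocollin found in simple as well as stratified epithelia (chr18:20030633-20059554, minus strand), had 5306 to 10269.9 normalised counts in female smoke inserts with a median of 6837, against 1701 to 5354 with a median of 4289.8 in female air inserts. The groups met only at their ends, where the lowest smoke insert lay just below the highest air insert. The mean was 6987 ± 1777 in female smoke and 4020.2 ± 1225 in female air cultures (SD, n = 6 each), and the log2 fold change was 0.84 ± 0.23 (SE, adjusted p = 0.00737). Without the 2 length-trend libraries, it was 0.60 (adjusted p = 0.017). In male cultures Dsc2 had 2142 to 5785 in smoke inserts with a median of 3953, against 2751 to 3643 with a median of 2932 in air inserts. Smoke inserts lay on both sides of the male air range, and the log2 fold change was 0.31 ± 0.23 (SE, adjusted p = 0.369).

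Dsc3, the desmocollin of the basal layers of stratified epithelia (chr18:19960930-20002097, minus strand), had fold changes of opposite sign in the sexes, of which only the male one passed. It had 171 to 324 normalised counts in male smoke inserts with a median of 231, against 263 to 429.6 with a median of 322 in male air inserts. These groups overlapped, since male smoke insert 2 was above the median of the air group. The fall was -0.55 ± 0.19 on the log2 scale (SE, adjusted p = 0.0444). It did not pass in inserts 1 to 3 alone (adjusted p = 0.242) or inserts 4 to 6 alone (adjusted p = 0.081), nor with the insert number as a block (adjusted p = 0.0716). The call lay close to the threshold and was lost in 15 of 24 refits with 1 library left out, including fits without female libraries, whose adjusted p ran from 0.0507 to 0.109. Those 15 libraries were female air inserts 4, 5 and 6, female smoke inserts 1 and 6, male air inserts 1 to 5 and male smoke inserts 1, 3, 4, 5 and 6, at log2 fold changes of -0.59 to -0.47. The fall passed without the 2 length-trend libraries (-0.55, limma, adjusted p = 0.00741) and with array weights (-0.54, limma, adjusted p = 0.00196). Of 16 alternatives other than leaving 1 library out, it passed in 8. The authors' deposited DESeq2 value for male cultures, turned so that a negative value is lower in smoke, is -0.51 (adjusted p = 0.00694).

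In female cultures Dsc3 had 1596.5 to 2935 normalised counts in smoke inserts with a median of 2221, against 831 to 2192 with a median of 1570.3 in air inserts. The groups overlapped. On the log2 scale the fold change was 0.50 ± 0.19 (SE, adjusted p = 0.0507) with 24 libraries and 0.32 (adjusted p = 0.136) without the 2 length-trend libraries. It passed without female air insert 2 or 3, female smoke insert 3, or male smoke insert 2 or 5, at adjusted p of 0.0239 to 0.0485 and log2 fold changes of 0.50 to 0.60.

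The smoke response of Dsc3, female minus male, was 1.05 ± 0.28 on the log2 scale (SE, 95% interval 0.48 to 1.62, adjusted p = 0.0658). With 24 libraries none of the 10 members passed this test of the difference in limma, against 1.03% of all genes tested, 0.694% higher and 0.34% lower. By unadjusted p under 0.05 it was 1 member, Dsc3, against 1786 of 13549 genes. On recovered whole reads edgeR called 0 (1.16% of all genes) and DESeq2 1 (3.84%). Without the 2 length-trend libraries, the Dsc3 difference was 0.87 (adjusted p = 0.0293), and 1 of 10 members passed against 6.2% of all genes. It also passed without female air insert 1 alone (0.87, adjusted p = 0.0359), female air insert 3 (1.15, adjusted p = 0.0402), female smoke insert 3 (1.14, adjusted p = 0.0439) or male smoke insert 2 (1.15, adjusted p = 0.048). For Pkp2 and Pkp3 the difference was -0.13 (95% interval -0.43 to 0.17) and -0.06 (95% interval -0.37 to 0.24), so the intervals still hold sex differences of that size.

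The desmogleins are the other cadherin class of the junction. Dsg2, the desmoglein found in every tissue with desmosomes (chr18:20558074-20604526, plus strand), had 1162 to 2792 normalised counts in female smoke inserts with a median of 2158, against 364 to 3289.6 with a median of 2259 in female air inserts. Its male smoke inserts had 1120.2 to 2815 with a median of 1697, against 1164 to 1232 with a median of 1211 in male air inserts. The female air group fell into separate ranges, with inserts 1 to 3 at 364 to 1701 and inserts 4 to 6 at 2817 to 3289.6. The male smoke group did so too, with inserts 1 to 3 at 1886 to 2815 and inserts 4 to 6 at 1120.2 to 1508, while the male air inserts stayed within a factor of 1.06. Whether the insert numbers mark separate runs of culture is not given in the labels.

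The log2 fold change of Dsg2 was 0.23 ± 0.37 (SE, adjusted p = 0.68) in female and 0.48 ± 0.37 (SE, adjusted p = 0.371) in male cultures. The female value turned with the libraries used, to -0.06 (adjusted p = 0.82) without the 2 length-trend libraries and to -0.68 (adjusted p = 0.0374) in inserts 4 to 6 alone, against 1.13 (adjusted p = 0.159) in inserts 1 to 3 alone. The male value passed without the 2 length-trend libraries (adjusted p = 0.0432). Dsg2 shares 330 exon bases with Gm16090, a gene on the opposite strand, and the strand setting of the counting is not stated in the notes. Gm16090 itself had 0 to 5.18 normalised counts.

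Dsg3, the desmoglein of the lower layers of stratified epithelia and the target of autoantibodies in the human disease pemphigus vulgaris (chr18:20510274-20541310, plus strand), had the widest spread of the members in every group but female smoke. It had 5854 to 13964 normalised counts in female smoke inserts with a median of 9886, against 685 to 9254 with a median of 8479.7 in female air inserts. Female air insert 1 was the low value, and the remaining 5 air inserts lay within the smoke range. Male smoke inserts had 1349 to 6665 with a median of 2628, against 1093 to 2280.02 with a median of 1406 in male air inserts. Of the 6 male smoke inserts, 4 were above the whole air range.

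The log2 fold change of Dsg3 was 0.75 ± 0.48 (SE, adjusted p = 0.243) in female cultures and 0.28 (adjusted p = 0.432) without the 2 length-trend libraries. In male cultures it was 0.89 ± 0.48 (SE, adjusted p = 0.192), and the same value passed when the spread was estimated without those libraries (adjusted p = 0.00758) or without female air insert 1 alone (adjusted p = 0.0141). The authors' deposited table for male cultures, which uses only male libraries, gives 0.91 for Dsg3 (adjusted p = 0.00376), 0.53 for Dsg2 (adjusted p = 0.00822) and 0.49 for Pkp1 (adjusted p = 0.0476), with the sign turned so that a positive value is higher in smoke. Their DESeq2 values for female cultures, turned likewise, are 0.77 for Dsc2 (adjusted p = 0.0105) and -0.65 for Pkp2 (adjusted p = 5.67e-05). Their female Pkp3 value, 0.27, did not pass (adjusted p = 0.0703).

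Per kilobase, Dsg3 made up a median of 87.1% of Dsg2 and Dsg3 together in female smoke inserts (82.9% to 89.6%), against 80.4% in female air inserts (72.4% to 88.8%). It made up 72.0% in male smoke inserts (49.9% to 76.8%), against 62.1% in male air inserts (55.7% to 72.5%). For the desmocollins, Dsc3 made up 21.1% of Dsc2 and Dsc3 in female smoke inserts (19.95% to 26.2%), against 27.0% in female air inserts (19.6% to 30.0%). That share was 4.73% in male smoke inserts (3.51% to 7.09%), against 8.34% in male air inserts (6.48% to 11.99%). Leaving out the 2 length-trend libraries, the female medians were 86.7% in smoke and 80.5% in air inserts for Dsg3, and 21.0% in smoke and 25.1% in air inserts for Dsc3. So within both cadherin pairs the male groups lay nearer to Dsg2 and Dsc2 than the female groups, and the smoke and air ranges overlapped in both sexes.

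The link from the cadherins to keratin, made of plakoglobin and desmoplakin, did not pass the test for smoke in either sex. Jup, or plakoglobin, which binds cadherin tails and is shared with adherens junctions (chr11:100368856-100397790, minus strand), had 19791 to 24917 normalised counts in female smoke inserts with a median of 20626, against 11056 to 22850.5 with a median of 18469 in female air inserts. Male smoke inserts had 7116.5 to 14437 with a median of 10770.5, against 8963 to 10841 with a median of 9761 in male air inserts. The groups overlapped in both sexes. Its log2 fold change was 0.27 ± 0.16 (SE, adjusted p = 0.201) in female cultures, 0.15 without the 2 length-trend libraries, and 0.06 ± 0.16 (SE, adjusted p = 0.817) in male cultures.

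Dsp, or desmoplakin, the plakin that ties the plaque to keratin filaments (chr13:38151294-38198577, plus strand), had 24442.5 to 43190.5 normalised counts in female smoke inserts with a median of 31819, against 10656 to 35029 with a median of 30596 in female air inserts. Male smoke inserts had 10571 to 18713 with a median of 13434, against 11291.5 to 13902 with a median of 12282 in male air inserts. Again the ranges overlapped, and the lowest female air value was that of insert 1. Its log2 fold change was 0.26 ± 0.22 (SE, adjusted p = 0.4) in female cultures, 0.07 without the 2 length-trend libraries, and 0.15 ± 0.22 (SE, adjusted p = 0.668) in male cultures. The 95% intervals were -0.20 to 0.72 and -0.31 to 0.61.

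Perp, a small membrane protein of the junction whose gene is a target of p63 and p53 (chr10:18845071-18857072, plus strand), had 32206 to 58104 normalised counts in female smoke inserts with a median of 34189, against 29677 to 58388 with a median of 36004 in female air inserts. The highest value of each female group came from a library with a length trend, and Perp has the shortest transcript of the 10 members at 1900 bases. Male smoke inserts had 10311 to 17732.5 with a median of 12629, against 9222 to 11974 with a median of 11179 in male air inserts. On the log2 scale the fold change was -0.01 ± 0.17 (SE, adjusted p = 0.966) in female cultures, with and without the 2 length-trend libraries, and 0.27 ± 0.17 (SE, adjusted p = 0.285) in male cultures.

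The smoke response of Jup and Dsp mRNA did not pass, and both were higher in female than in male air cultures. Promoters are shown for these genes because they were the only members found in RefSeq's table of promoters for GRCm38.p6 (2 of 10). Each runs 5′ to 3′ on the strand of its gene from 250 bases before the start to 50 after it, and capitals mark the letters GGGCGG on either strand, the GC box bound by Sp-family factors.
Jup, chr11:100397741-100398040, minus strand: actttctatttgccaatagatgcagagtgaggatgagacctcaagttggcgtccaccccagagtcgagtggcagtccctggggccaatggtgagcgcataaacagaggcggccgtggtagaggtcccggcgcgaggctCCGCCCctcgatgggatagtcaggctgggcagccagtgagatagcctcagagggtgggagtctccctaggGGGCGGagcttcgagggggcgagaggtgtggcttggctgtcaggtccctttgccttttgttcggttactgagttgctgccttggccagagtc
Dsp, chr13:38151044-38151343, plus strand: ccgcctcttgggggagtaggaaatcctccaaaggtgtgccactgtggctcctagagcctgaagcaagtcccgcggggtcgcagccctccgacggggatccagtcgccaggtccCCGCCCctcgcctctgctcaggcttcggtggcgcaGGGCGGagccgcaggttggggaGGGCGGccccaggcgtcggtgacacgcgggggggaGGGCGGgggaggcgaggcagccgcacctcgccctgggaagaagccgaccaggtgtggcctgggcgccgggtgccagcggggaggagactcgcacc
The GC content was 60.7% for Jup and 73.0% for Dsp, against a median of 52.7% over 32851 promoters of the same length. The GC box occurred 2 times in the Jup and 4 times in the Dsp promoter, and 35.7% of all promoters hold it at least once. CCAAT, which overlaps none of these, occurred 2 times in the Jup promoter and not in that of Dsp, against 37.4% of all promoters. The letters TGANTCA of AP-1, AACNGGTT of grainyhead-like factors and TATAAA of the TATA box are not in these windows on either strand, and 7.8%, 2.1% and 13.6% of all promoters hold them.

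Levels of different genes were compared per kilobase of the longest transcript. Perp was the most abundant member in all 4 groups, at 20509.7 normalised counts per kilobase in female smoke, 20668.5 in female air, 7070 in male smoke and 5774 in male air cultures on average. Jup came next in each group, at 4273 in female smoke, 3615 in female air, 2098 in male smoke and 1958 in male air cultures, and the ranges of Perp and Jup did not overlap in any group. In female smoke cultures the order went on with Pkp1 (4047), Dsp (3333), Dsg3 (2380.3), Pkp3 (1676), Dsc2 (1498), Dsc3 (413), Dsg2 (367) and Pkp2 (181). Neighbours in that order overlapped in their ranges over inserts, except Perp above Jup and Dsc2 above Dsc3. In female air cultures the order was the same down to Dsc2, and then came Dsg2 (370.1), Dsc3 (301) and Pkp2 (287), with overlapping ranges.

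Male cultures had another order at the lower end. In male smoke cultures Jup was followed by Dsp (1469.7), Pkp1 (1227), Pkp3 (1007), Dsc2 (843), Dsg3 (756), Dsg2 (305), Pkp2 (245) and Dsc3 (43.2), and the ranges of neighbours overlapped except Perp above Jup and Pkp2 above Dsc3. In male air cultures it was followed by Dsp (1293), Pkp1 (864), Pkp3 (784), Dsc2 (656), Dsg3 (369.96), Pkp2 (359.7), Dsg2 (208) and Dsc3 (63.0). There, the neighbours that overlapped were Pkp1 and Pkp3, Pkp3 and Dsc2, and Dsg3 and Pkp2. Dsc3 was thus the least abundant member in both male groups and Pkp2 in both female groups.

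**Figure D3:**
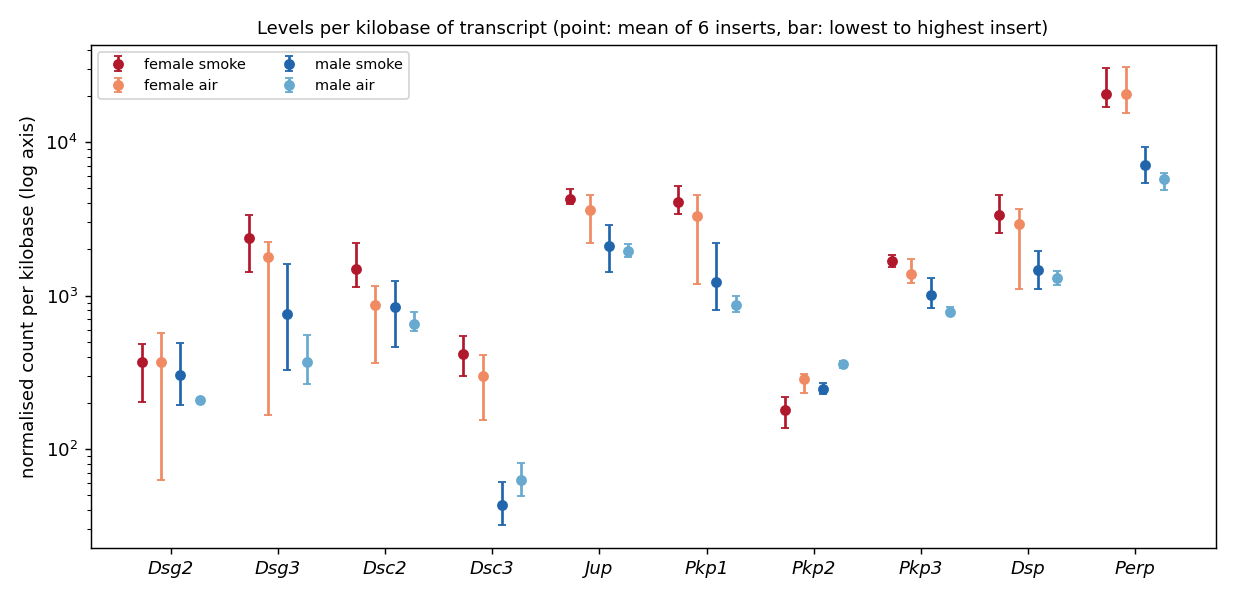
Normalised count per kilobase of the longest transcript (log y axis) of each desmosome gene in female smoke, female air, male smoke and male air cultures; points are means of 6 inserts and bars run from the lowest to the highest insert. Perp is highest in every group, at 20509.7 in female smoke and 5774 in male air cultures, and Dsc3 is lowest in both male groups.

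Most desmosome transcripts were higher in female air than in male air cultures. Of the 10 members 7 were higher and 1 lower in female air cultures, against 39% of all genes tested, 20% higher and 19% lower. The median log2 fold change of the members was 0.97, against 0.02 for all genes. Without the 2 length-trend libraries, 9 were higher and 1 lower, against 55.8% of all genes, and the median was 1.17. The groups did not overlap for 6 of 10 members, Dsc3, Jup, Pkp1, Pkp2, Pkp3 and Perp, against 33.2% of all genes. The female and male inserts come from separate preparations, so sex and preparation cannot be told apart. Cell type markers differed between the air groups too. Of 7 squamous markers 4 were higher in female air cultures, with a median log2 fold change of 1.79 over the list and sums of 137787 to 285972 normalised counts in female air against 5940.3 to 12206 in male air inserts. Most of the sum was Krt13, at a mean of 175685 in female air and 5454 in male air inserts. Without the 2 length-trend libraries 4 of 7 were again higher, and Ivl (0.74), Sprr1b (0.19) and Sprr1a (-0.84) did not pass. Of 6 club and secretory markers 3 were lower, with a median of -2.29. Of 6 ciliated markers 2 were higher, and of 7 basal markers 2 were higher and 2 lower. Without the 2 length-trend libraries, 5 of 6 club and secretory markers were lower, against 27.4% of all genes, with a median of -2.70. In that refit 5 of 6 ciliated markers were higher, against 28.3% of all genes, with a median of 1.81, and the basal counts were unchanged. The part of these cell types in the desmosome differences was not tested.

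With 24 libraries the largest of these differences was that of Dsc3, with 831 to 2192 normalised counts in female air against 263 to 429.6 in male air inserts, a log2 fold change of 2.21 ± 0.19 (SE, adjusted p = 4.54e-09). Dsg3 differed by 1.94 ± 0.48 (SE, adjusted p = 0.00261), and its female air insert 1, at 685, lay below the whole male air range. Without the 2 length-trend libraries, Dsg3 came first at 2.55, ahead of Dsc3 at 2.39, Pkp1 at 2.11 and Perp at 1.69, all called. Pkp1 differed by 1.84 ± 0.26 (SE, adjusted p = 5.30e-06) and Perp by 1.81 ± 0.17 (SE, adjusted p = 1.50e-08), and for both every female air insert was above every male one. The folds with 24 libraries were 4.62 for Dsc3, 3.83 for Dsg3, 3.57 for Pkp1 and 3.51 for Perp.

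Smaller differences in the same direction were found for Dsp, at 1.09 ± 0.22 (SE, adjusted p = 0.000447), Jup, at 0.85 ± 0.16 (SE, adjusted p = 0.000191), and Pkp3, at 0.81 ± 0.10 (SE, adjusted p = 1.45e-06). Pkp2 went the other way, at -0.33 ± 0.10 (SE, adjusted p = 0.0133), with 674 to 891 normalised counts in female air and 974 to 1088 in male air inserts. The refit without the 2 length-trend libraries gave Dsp at 1.35, Jup at 0.99, Pkp3 at 0.74 and Pkp2 at -0.27, all called. Dsg2, at 0.54 ± 0.37 (SE, adjusted p = 0.253), and Dsc2, at 0.32 ± 0.23 (SE, adjusted p = 0.283), did not pass. Without female air insert 1 both passed, Dsg2 at 0.99 (adjusted p = 0.00125) and Dsc2 at 0.55 (adjusted p = 0.0185). In inserts 1 to 3 alone 4 of 10 members passed, Dsc3, Pkp1, Pkp3 and Perp, against 21.1% of all genes.

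The male smoke inserts differed widely among themselves, and many members were high or low in the same insert. Insert 1 had the highest value of its group for 8 of 10 members, all but Dsc3 and Pkp2. Insert 3 had the lowest value for 6 of 10, namely Dsg3, Dsc2, Jup, Pkp1, Dsp and Perp, and the highest for Pkp2. Such counts, here and for the female inserts below, describe the members alone and were not set against all genes. From the lowest to the highest insert the male smoke group spanned 4.94-fold for Dsg3, 2.73-fold for Pkp1 and 2.51-fold for Dsg2, against 2.09-fold, 1.27-fold and 1.06-fold among male air inserts. Pkp2 spanned 1.18-fold among male smoke and 1.12-fold among male air inserts. Without male smoke insert 1 the count of members called in male cultures was 1 of 10, namely Pkp2, against 15.6% of all genes.

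The summed level of 7 squamous markers in male smoke inserts 1 to 6 was 57794, 43613, 37696, 30587, 22668 and 23523 normalised counts, so it too was highest in insert 1, but insert 3, the lowest for 6 desmosome genes, was not the lowest. The part of squamous cells in the spread of the desmosome genes was not tested. In female smoke cultures insert 5 was the highest for 6 of 10 members, and insert 3 the lowest for 6 of 10. In female air cultures insert 1 was the lowest for 8 of 10 members and the highest for Pkp3 and Perp.

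**Figure D4:**
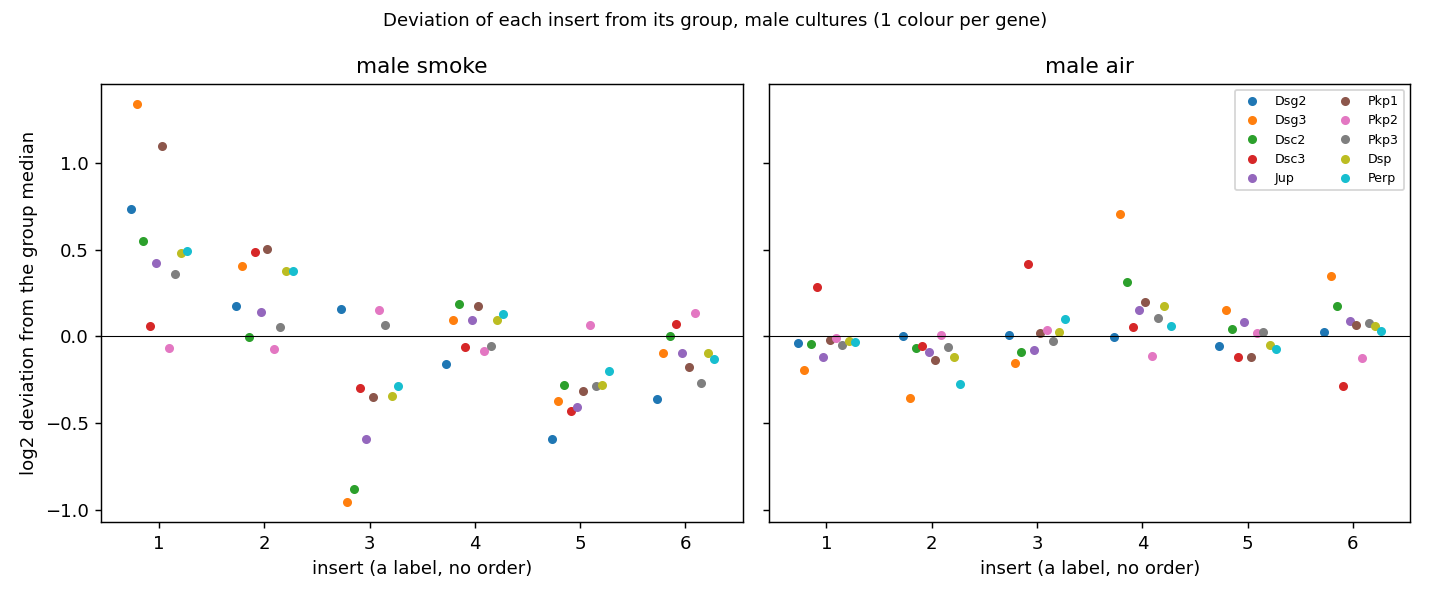
Deviation of each desmosome transcript from the median of its group on the log2 scale (y axis) in each male smoke insert (left) and each male air insert (right), 1 colour per gene; insert numbers have no order. Male smoke insert 1 is the highest of its group for 8 of 10 genes and insert 3 the lowest for 6 of 10, while male air inserts stay closer to 0 for most genes.

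Cell type markers moved with smoke in the same libraries, and their part in the desmosome results was not tested. Of all genes tested with 24 libraries, 15.5% were higher and 19.3% lower in female smoke cultures, and 9.76% higher and 12.2% lower in male smoke cultures. All 7 squamous markers passed in male and 5 of 7 in female cultures, all of them higher in smoke. Their summed level was 301026 to 413877 normalised counts in female smoke against 137787 to 285972 in female air inserts, and 22668 to 57794 in male smoke against 5940.3 to 12206 in male air inserts, most of it Krt13 and Krt6a. With 24 libraries all 6 ciliated markers fell in female cultures and none passed in male cultures (limma, 0 of 6 in the test of the sex difference), with sums of 269 to 14262 in female smoke against 12656 to 29471 in female air inserts, and 400.2 to 4953 in male smoke against 3845 to 7025 in male air inserts. Of 6 club and secretory markers 4 fell in female and 2 in male cultures. Their sums were 25447 to 139127 in female smoke against 144558 to 358384 in female air inserts, and 74388 to 254840.0 in male smoke against 389539 to 670211 in male air inserts. Of 7 basal markers 1 was higher and 1 lower in female smoke, and 2 were higher and 2 lower in male smoke cultures. Their sums were 252187 to 412822 in female smoke against 172213 to 274683 in female air inserts, and 124672 to 262985 in male smoke against 181208 to 226225 in male air inserts. In the refit without the 2 length-trend libraries, 2 of 6 ciliated and 3 of 6 club and secretory markers fell in male cultures, against 24.7% of all genes. In female cultures 6 of 7 squamous markers rose and all 6 ciliated markers fell, against 21.9% of all genes higher and 23.8% lower. The female ciliated median was then -1.51, against -2.56 with 24 libraries.

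Of the markers of cells outside the epithelium, Actc1, Cdh5, Kdr and Ptprc were at or near 0. Of the cardiac muscle list, added because heart muscle is rich in Pkp2 and Dsg2, Actc1 was at 0 in 23 of 24 libraries and Myh6 reached 7.05 normalised counts. Its sum was 74.3 to 355 in female smoke against 77.2 to 199 in female air inserts, and 49.4 to 169 in male smoke against 18.9 to 41.6 in male air inserts, most of it Tnnt2. Endothelial Cdh5 was at 0 in 23 and Kdr in 21 of 24 libraries, and the sum of 4 markers ran from 2.09 to 33.2. Of 6 fibroblast markers, 1, Dcn, was tested, and it fell in both sexes. Their sum was 10.3 to 88.6 in female smoke against 144 to 469.6 in female air inserts, and 8.88 to 30.5 in male smoke against 83.2 to 342 in male air inserts. Of 5 leukocyte markers Ptprc reached 8.31, and the sum, 5176 to 41776 in female smoke against 33615 to 131006 in female air inserts, and 5756 to 44336 in male smoke against 30313 to 40514 in male air inserts, was mostly Lyz2, which airway epithelium also expresses. Lyz2 fell in female smoke cultures, at -1.83 (adjusted p = 0.00575). Cd68 rose in both sexes, at 0.77 (adjusted p = 0.0159) in female and 1.53 (adjusted p = 0.000106) in male smoke cultures. Itgam had 1016 to 3662 normalised counts in female smoke against 394 to 1653 in female air inserts, and 85.6 to 436 in male smoke against 12.9 to 60.7 in male air inserts. It rose in male smoke cultures (2.61, adjusted p = 0.000193), was at 0.87 in female smoke cultures, which did not pass, and was higher in female air than in male air cultures (5.28, adjusted p = 1.36e-09). The part of leukocytes in the desmosome results was not tested.

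Other parts of the desmosome and its filaments were read from lists. Of 10 other desmosome components 6 were abundant enough to be tested. Dsg1b passed the filter on low values through its high level in female smoke cultures alone, so its values are a description. Of the other 5, 1 rose in female and 1 fell in male smoke cultures, against the 15.5% and 12.2% of all genes that moved so. Dsg1b had 7.25 to 246 normalised counts in female smoke inserts with a median of 13.9, against 0 to 2.78 in female air inserts. Its log2 fold change was 3.76 on the scale of the count plus 1. Dsg1b is a copy of the desmoglein of the upper epidermis, and Dsg1a, Dsg1b and Dsg1c are so alike in sequence that reads may be split between them. Ppl, or periplakin, a plakin of the cornified envelope and desmosomes, had 10867 to 25171 in female smoke against 7100.4 to 14069 in female air inserts, a log2 fold change of 0.58 ± 0.19 (SE, adjusted p = 0.0231). Pkp4, an armadillo protein related to the plakophilins, had 1588 to 2328 in male smoke against 2531 to 2968 in male air inserts, a log2 fold change of -0.57 ± 0.12 (SE, adjusted p = 0.00208). These groups did not overlap, as for 25.2% of all genes. Dsg1b without the 2 length-trend libraries was at 3.30 and Ppl at 0.57 (adjusted p = 0.00519) in female cultures. Under that fit 1 of the 5 rose and 1 fell in each sex. Of all genes, 21.9% rose and 23.8% fell in female cultures, and 22.5% rose and 24.7% fell in male cultures. Between the air groups 4 of the 5 were higher in female cultures with 24 libraries, against 20% of all genes.

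Of 13 keratins of the filaments that desmosomes anchor, 6 rose and 1 fell in female smoke cultures, and 7 rose in male smoke cultures, against 15.5% of all genes higher and 19.3% lower in female and 9.76% higher in male cultures. Their median log2 fold change was 0.74 in female and 0.72 in male cultures. Krt6b, a keratin of stressed and squamous epithelium, had 3184 to 8644 normalised counts in female smoke against 70.3 to 217 in female air inserts, and 87.4 to 293 in male smoke against 0 to 10.1 in male air inserts. Its log2 fold change was 5.52 ± 0.44 (SE, adjusted p = 3.19e-08) in female and 5.32 ± 0.44 (SE, adjusted p = 6.83e-08) in male cultures. Krt6a, its close paralog, rose by 1.71 ± 0.30 (SE, adjusted p = 0.00023) in female and by 3.43 ± 0.30 (SE, adjusted p = 8.00e-08) in male cultures. Krt16, the partner of both, rose by 3.22 ± 0.52 (SE, adjusted p = 0.000112) and 2.05 ± 0.52 (SE, adjusted p = 0.00706). The female values without the 2 length-trend libraries were 5.40 for Krt6b, 1.56 for Krt6a and 3.14 for Krt16, all called, and 9 keratins rose in each sex, against 21.9% of all genes in female and 22.5% in male cultures. Reads of Krt6a and Krt6b may be split between these near-identical genes.

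Of 13 regulators of desmosome genes or of cadherin turnover, 4 rose in female smoke cultures, and 5 rose and 1 fell in male smoke cultures, against 15.5% of all genes higher in female, and 9.76% higher and 12.2% lower in male cultures. Klf4, a zinc finger factor of epithelial barrier formation, had 4351 to 9867 normalised counts in female smoke against 1476 to 4509 in female air inserts, and 2916 to 5360.4 in male smoke against 947 to 1576 in male air inserts. In the fit without the 2 length-trend libraries 6 rose in each sex, against 21.9% and 22.5% of all genes, and the female values were 1.19 for Klf4 and 1.13 for Grhl3, both called. The log2 fold change of Klf4 was 1.25 ± 0.23 (SE, adjusted p = 0.000425) in female and 1.76 ± 0.23 (SE, adjusted p = 1.82e-05) in male cultures. Grhl3, a grainyhead-like factor of the epidermal barrier, rose by 1.33 ± 0.23 (SE, adjusted p = 0.00022) and 1.28 ± 0.23 (SE, adjusted p = 0.000401). Sfn, the stratified-epithelium 14-3-3 protein, rose by 1.18 ± 0.31 (SE, adjusted p = 0.0092) in male cultures and was at 0.13 ± 0.31 (SE, adjusted p = 0.792) in female cultures, a female minus male difference of -1.06 that did not pass (adjusted p = 0.291).

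Grhl1, a grainyhead-like factor known in mice to act on a desmoglein promoter, was singled out after its values were seen. It had 1815 to 2446 normalised counts in female smoke against 1444 to 1684 in female air inserts, and 599 to 959 in male smoke against 1049.9 to 1199 in male air inserts. The groups did not overlap in either sex, a separation that 12.5% of all genes tested showed in female and 25.2% in male cultures. The directions were opposite. The log2 fold change was 0.40 ± 0.10 (SE, adjusted p = 0.00371) in female and -0.48 ± 0.10 (SE, adjusted p = 0.00141) in male cultures. The female minus male difference was 0.87 ± 0.14 (SE, adjusted p = 0.00298), and 0.89 (adjusted p = 0.00108) without the 2 length-trend libraries.

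The genes whose profile over the 24 libraries was most like a member's were sought among 11833 genes with a mean of at least 50, by the mean absolute difference between centred log2 values. For Dsc2, the member with the largest female smoke change with 24 libraries, these were Acly (0.17), Ccnd3 (0.17), Zbtb7b (0.20), Crybg1 (0.21) and Tmod3 (0.21). For Dsg3, the member with the largest male smoke change, they were Rab7b (0.32), Sipa1l2 (0.33), Tns4 (0.35), Nectin4 (0.38) and Mal (0.38). The profiles share the same libraries, and the measure is a description.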

How the data were processed

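RNA was sequenced from 24 inserts in 4 groups of 6. The authors deposited 1 table of counts normalised with DESeq2, a signal per gene and library, and 3 tables of their comparisons with log2 fold changes, standard errors, p-values and a score, the Wald statistic, per the file headers. Tools named in the submitters' processing notes are DESeq2, HTSeq, Trimmomatic 0.38.0 and FastQC 0.11.9, with the build GRCm38 (mm10), and no aligner or strand setting is named there. The deposited fold changes run air over smoke and male over female, and their sign was turned. Gene positions and lengths come from the deposited refGene models, on mm10.

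Genes with a mean of at least 10 were tested with limma 3.58.1 (R 4.3.3; lmFit, eBayes with a trend, two-sided) on log2(normalised count + 1), with 1 term per group over all libraries and Benjamini-Hochberg adjustment over 13549 genes. A gene was called at an adjusted p under 0.05. A value of 1 was added before logs, which understates changes of low genes. In 23 columns every value was a whole multiple of 1 step, within 0.001 reads, and edgeR 4.0.16 and DESeq2 1.42.0 were run on those reads; male smoke insert 5 was left out there. Intervals of log2 fold changes are 95% intervals from limma. The scripts were tested on simulated data.

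All 10 members are named, with at most 3 called genes of each list by the largest smoke change, and 5 genes most like the member with the largest change. Members and lists were chosen with earlier results of these data known. Alternatives were other scalings, pseudocounts, filters, weights, a replicate block, subsets of inserts, other tools and a length from the union of exons.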

Additional observations from a re-analysis of the deposited data

Results flagged for a closer look

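Female air insert 1 stood below the other 5 inserts of its group by more than Dixon's test allows at the 95% level for 6 of the 10 desmosome genes. The values in that insert were 364 normalised counts for Dsg2, 685 for Dsg3, 1701 for Dsc2, 10656 for Dsp, 5571 for Pkp1 and 674 for Pkp2. All 6 came from this 1 library, which has a length trend, among 40 sets of 6 inserts examined, of which chance gives about 1 in 20. The members' female fold changes without this library and female smoke insert 4 are given above.

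A test of the difference between the female and male smoke responses passed for 140 of 13549 genes (limma, 1.03%), none of them a member and 2 of them on the lists read here. Krt6a differed by -1.72 on the log2 scale (limma, adjusted p = 0.0463), the rise being smaller in female cultures, where the air level was higher, at 12012 to 23956 normalised counts in female air against 1162 to 2721 in male air inserts. Grhl1 differed by 0.87 (limma, adjusted p = 0.00298), higher in smoke in female and lower in male cultures.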

How the results depend on the processing

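Counts of members called moved as follows. In male smoke against male air cultures 3 were called, against 22% of all genes. It was 5 with array weights (49.3% of all genes), with only the libraries of the comparison (45.4%) or without both libraries with a length trend (47.2%), and 1 in inserts 4 to 6 (6.87%). In female smoke against female air cultures 3 were called (34.8%), 0 in inserts 1 to 3 (4.84%; limma, 3 at an unadjusted p under 0.05) and 5 in inserts 4 to 6 (46.1%). In female against male air cultures 8 were called (39%), 4 in inserts 1 to 3 (21.1%), 10 with array weights (70%) and 9 each with edgeR (41.1%) and DESeq2 (45.4%). For the female minus male smoke response 0 were called (1.03%), 2 with array weights (17.9%), and 1 in inserts 4 to 6 (4.7%), without both libraries (6.2%), or with DESeq2 (3.84%). With 1 library left out these counts ranged from 1 to 4, 2 to 4, 8 to 10 and 0 to 1, and the male count was 1 without male smoke insert 1 (15.6% of all genes). In the same order, the share of all genes ranged from 15.6% to 33.9%, 30.6% to 46.1%, 34.6% to 44.8% and 0.554% to 3.18%.

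Log2 values that changed sign were of results that had not passed with 24 libraries. After the change of sign, Dsg2 in female smoke passed in inserts 4 to 6 (limma, adjusted p = 0.0374). In female smoke Dsg2 became -0.13 with array weights, -0.68 in inserts 4 to 6, -0.065 without both libraries, -0.035 with edgeR and -0.017 with DESeq2. Dsp became -0.0033 with array weights and -0.056 in inserts 4 to 6, and Perp 0.36 in inserts 4 to 6. In male smoke Jup became -0.037 with quantile scaling and -0.10 in inserts 4 to 6, and Dsp -0.031 there. Between air groups Dsg2 became -0.26 in inserts 1 to 3. For the difference in response, Dsg2 became 0.29, Pkp1 0.023 and Pkp2 0.17 in inserts 1 to 3, Pkp3 0.18, Perp 0.27 and Dsp -0.025 in inserts 4 to 6, Pkp3 0.082 and Dsp -0.11 with array weights, and Dsp -0.083 without both libraries, -0.082 with edgeR and -0.067 with DESeq2. The cause was not tested. With 1 library left out the ranges that crossed 0 were, in female smoke, -0.23 to 0.41 for Dsg2, -0.0025 to 0.34 for Dsp and -0.13 to 0.11 for Perp, in male smoke -0.036 to 0.17 for Jup, and for the difference in response -0.75 to 0.11 for Dsg3, -0.16 to 0.19 for Dsp, -0.31 to 0.15 for Pkp1 and -0.11 to 0.015 for Pkp3.

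Insert numbers did not meet the rule for pairing, a correlation over 0.1 in every pair. In female comparisons the exception was the pair of insert 1, which holds female air insert 1. Male air libraries differed less within inserts 1 to 3 or 4 to 6 (chi-square per degree of freedom 2.87 to 11.8) than across them (16.3 to 24.8). The residuals of same-numbered inserts correlated at -0.21 to 0.37 in female, -0.24 to 0.12 in male and 0.03 to 0.20 in air comparisons, above 0.1 in 5, 2 and 2 of 6 pairs, and 4, 1 and 3 of 12 libraries correlated best with their own number. With the insert number as a replicate block 3, 2, 8 and 0 members were called in the female smoke, male smoke, air and difference comparisons. The shares of all genes were 33.5%, 20.7%, 38.4% and 0.827%. Dsc3 in male smoke was no longer called (adjusted p = 0.0716). Levels per kilobase with the union of exons moved by less than 1 SD, for Pkp3 to 748 in male air cultures. The 6 inserts per group limit the precision, and counts of desmosome genes are not near the depth limit.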
